A study of Mus musculus with 8 samples.

Results

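Transcripts of 10 crypt stem cell and Wnt-response genes were followed in epithelial cells of the mouse distal colon, with and without the nuclear receptor gene Rora and with and without injury. The genes were chosen by name as stem cell markers and as targets or feedback regulators of Wnt signalling. They are 10 of 53379 genes listed in each deposited table. These genes and the lists of other genes below were chosen with earlier results of these data known. Their counts are therefore set beside shares of all genes as description only. They are Lgr5, Ascl2, Smoc2 and Prom1, then Axin2, Rnf43 and Znrf3, and last Sox9, Ephb2 and Cd44. There were 4 groups of 2 libraries each, all from C57BL/6 mice. DSS-treated KO libraries came from RORaΔIEC mice, in which Rora was deleted in intestinal epithelial cells, given 2% dextran sulfate sodium (DSS) in the drinking water for 5 days and plain water for 3 days after it. DSS-treated WT libraries came from RORaf/f mice on the same course. Untreated KO and untreated WT libraries came from the same genotypes without DSS. WT mice therefore carried floxed Rora alleles too, and the Cre line behind the deletion is not given in the sources used here. DSS is a polymer that injures the colon lining. The cells were shaken off opened, cut colon and pelleted, so they were a bulk preparation with no sort.

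Colon crypts are renewed by stem cells at their base, which are kept in place by Wnt signals. A Wnt ligand bound to a Frizzled receptor and its LRP partner stops the APC, Axin and GSK3 complex from breaking down beta-catenin, which then switches on target genes together with TCF/LEF factors. R-spondins, bound by Lgr5 and its relatives, strengthen the signal by removing Rnf43 and Znrf3, enzymes that take Frizzled off the cell surface. Several targets, among them Axin2, Rnf43 and Znrf3, are brakes on the pathway, so their transcripts are often used as a readout of it.

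All 10 genes passed the filter on low counts in all comparisons. Library totals lay between 15971642 and 20418466 expected counts, and Ascl2 had the fewest counts of the 10, from 63 to 174 per library. Values are given as CPM, the count divided by a library size scaled with TMM factors, and genes were called higher or lower at an adjusted p under 0.05 in edgeR's quasi-likelihood test. Rora had 8 and 5 counts in DSS-treated KO libraries and 16 and 14 in DSS-treated WT libraries, and 4 and 3 counts in untreated KO libraries and 12 and 6 in untreated WT libraries. These counts were too low for a firm check of the genotype labels: Rora was called lower with DSS at an adjusted p of 0.0425, a call lost without any 1 of the 8 libraries, and was not called without DSS (adjusted p = 0.238). The pair of DSS-treated KO libraries differed from each other more than the other pairs did: chi-square divided by its degrees of freedom was 5.23 there and 1.29 to 2.23 in the other groups. Mitochondrial genes took 4.91% to 5.29% of counts in DSS-treated KO libraries and 7.23% to 8.05% in the other 6. General epithelial genes summed to 19971 to 21025 CPM in DSS-treated KO, 19208 to 19309 in DSS-treated WT, 22336 to 22500 in untreated KO and 20408 to 20417 in untreated WT libraries, and no gene of that list was at 0. Nothing in the labels says that the libraries of a group came from separate mice, so p-values measure the spread between these libraries, which may be technical.

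In DSS-treated KO epithelium Lgr5, Axin2, Znrf3, Sox9 and Prom1 were lower than in DSS-treated WT epithelium and Cd44 was higher, so 5 of 10 fell and 1 rose. Without DSS-treated WT replicate 1 the number that fell was 3, and without DSS-treated KO replicate 1 the number that rose was 2. Among all 14991 genes tested 39.1% were called, 17.7% lower and 21.3% higher. The median log2 difference was -0.25 over the 10 genes and -0.01 over all genes. In untreated KO against untreated WT epithelium Lgr5 and Ascl2 were lower and Prom1 and Cd44 higher, beside 15.4% of all genes called, 6.22% lower and 9.19% higher, and the medians were -0.06 and 0.01. The 2 falls were both lost without untreated KO replicate 1 or untreated WT replicate 1, and 1 was lost without untreated KO replicate 2 or untreated WT replicate 2. DSS lowered 5 of the 10 and raised 3 in each genotype, and 3 fell in WT without DSS-treated WT replicate 1, whereas of all genes 41.6% were called in KO, where 19.8% fell and 21.7% rose, and 37.2% in WT, where 18.3% fell and 18.9% rose. The medians were -0.33 in KO and -0.12 in WT for the 10 genes, and 0.00 and -0.01 for all genes. The response to DSS differed between the genotypes for Prom1, Znrf3 and Sox9, in each case more negative in KO, so 3 of 10 were called, beside 21.4% of all genes called, 10.6% of all genes with a negative and 10.8% with a positive difference. The number called was 1, Prom1, without either DSS-treated WT library, untreated KO replicate 2 or untreated WT replicate 1. Comparisons that share a group share its libraries, so these counts are not separate evidence of each other. In this bulk preparation fewer cells of a type and less RNA per cell cannot be told apart.

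**Figure D1:**
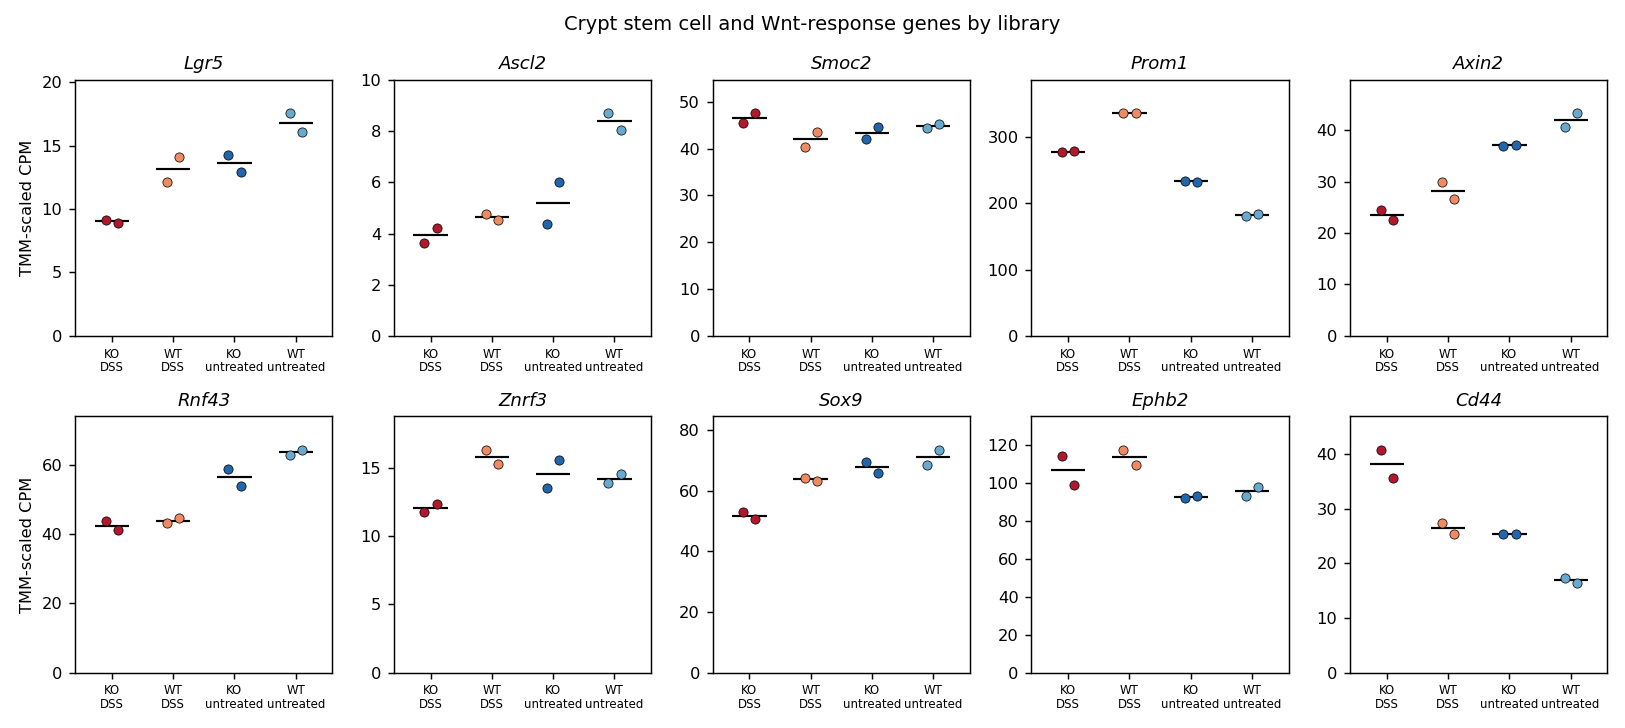
TMM-scaled CPM of the 10 genes in each library (points) with the mean of the group (line), for DSS-treated KO, DSS-treated WT, untreated KO and untreated WT epithelium (2 libraries each). Each vertical axis starts at 0. Lgr5 is lowest in the DSS-treated KO libraries, at 8.93 and 9.15 CPM, where Cd44 is highest, at 35.6 and 40.7 CPM.

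Upstream sequence is shown for 3 of the genes that differ in their pattern: Axin2, which fell with DSS in both genotypes, Ascl2, which was lower in untreated KO epithelium, and Cd44, which rose in all comparisons of 2 groups. RefSeq promoter windows were at hand for 6 of the 10 genes. The 250 bases before the start are given 5′ to 3′ on the gene's strand, in GRCm38.p6 coordinates, for Axin2 at chr11:108920099-108920348 (plus strand), Ascl2 at chr7:142969265-142969514 (minus strand) and Cd44 at chr2:102901666-102901915 (minus strand). Capitals mark the TCF/LEF core read on the other strand.
Axin2: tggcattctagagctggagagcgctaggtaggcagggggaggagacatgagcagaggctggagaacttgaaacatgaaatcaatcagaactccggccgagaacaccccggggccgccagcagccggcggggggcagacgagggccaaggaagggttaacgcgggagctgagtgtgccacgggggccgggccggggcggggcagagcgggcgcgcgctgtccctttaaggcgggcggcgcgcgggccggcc
Ascl2: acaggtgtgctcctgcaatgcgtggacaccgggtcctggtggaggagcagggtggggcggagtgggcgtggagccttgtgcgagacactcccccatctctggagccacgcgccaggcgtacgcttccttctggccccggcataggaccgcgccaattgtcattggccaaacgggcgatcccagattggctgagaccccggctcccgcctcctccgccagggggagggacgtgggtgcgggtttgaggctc
Cd44: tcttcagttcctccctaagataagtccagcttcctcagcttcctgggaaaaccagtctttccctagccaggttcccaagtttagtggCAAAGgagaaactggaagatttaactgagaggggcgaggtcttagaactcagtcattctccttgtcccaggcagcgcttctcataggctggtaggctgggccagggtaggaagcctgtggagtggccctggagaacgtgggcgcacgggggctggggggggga

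The TCF/LEF core CTTTG, searched on both strands in windows of 300 bases, lay in 2 of 8 windows of these genes, those of Cd44 and Prom1, and in 53.9% of 32851 windows genome-wide. The longer forms CTTTGA and CTTTGT, which contain the core, lay in 1 and 0 of the 8 windows, and in 5257 and 6147 of all windows, which is 18.7% for CTTTGT. The ROR site core TAGGTCA lay in none of the 8 and in 2.61% of all. So short a word is common by base composition, and its absence says only that those letters are not in these windows.

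Among the stem cell markers, Lgr5 was lower in DSS-treated KO epithelium, Lgr5 and Ascl2 were lower in untreated KO epithelium in calls that rested on single libraries, Prom1 was higher in untreated KO and lower in DSS-treated KO epithelium, and Smoc2 was not called in any comparison. Lgr5 (ENSMUSG00000020140, mm10 chromosome 10, 115450311 to 115587780) encodes the R-spondin receptor that marks cycling crypt base stem cells. It had 9.15 and 8.93 CPM in DSS-treated KO libraries and 12.1 and 14.1 CPM in DSS-treated WT libraries. It had 14.3 and 12.9 CPM in untreated KO libraries and 17.6 and 16.1 CPM in untreated WT libraries. KO lay below WT without overlap under both treatments, and DSS below no DSS without overlap in both genotypes. Groups of 2 libraries separate easily: Ephb2 did not overlap between untreated genotypes either (edgeR adjusted p = 0.703). The share of all genes without overlap was not counted, for Lgr5 or for the genes below. With DSS the log2 difference between KO and WT was -0.54 ± 0.11 (SE, edgeR adjusted p = 0.00135). Without DSS it was -0.31 ± 0.10 (adjusted p = 0.0461), a call that was lost when any 1 of the 4 untreated libraries was left out (adjusted p 0.0745 to 0.306), by DESeq2's Wald test (0.268), with total count scaling (0.0507) and with effective-length offsets (0.139). DSS lowered Lgr5 by -0.59 ± 0.11 in KO (adjusted p = 0.000592) and by -0.36 ± 0.10 in WT (adjusted p = 0.0102), and the difference between these responses did not pass the test (-0.23, adjusted p = 0.293). The fall in WT was lost without DSS-treated WT replicate 1 (-0.26, adjusted p = 0.123), without untreated WT replicate 1 (-0.29, adjusted p = 0.101), by the Wald test (0.1) and with length offsets (-0.21, adjusted p = 0.17).

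Ascl2 (ENSMUSG00000009248, chromosome 7, 142966829 to 142969264) encodes a basic helix-loop-helix transcription factor that maintains crypt stem cell identity. It had 3.62 and 4.23 CPM in DSS-treated KO libraries and 4.75 and 4.53 CPM in DSS-treated WT libraries. It had 4.38 and 6.00 CPM in untreated KO libraries and 8.71 and 8.07 CPM in untreated WT libraries. The untreated WT libraries stood above the other 6, which lay between 3.62 and 6.00 CPM. Untreated KO epithelium was lower than untreated WT by a log2 difference of -0.69 ± 0.16 (adjusted p = 0.00783). That call was lost without untreated KO replicate 1 (-0.49, adjusted p = 0.114), without untreated WT replicate 1 (-0.63, adjusted p = 0.0739), by the Wald test (0.0515) and with length offsets (0.0605). In WT, DSS lowered Ascl2 by -0.86 ± 0.16 (adjusted p = 0.000727), a call kept under all 15 alternatives. In KO the DSS difference was -0.40 ± 0.18 (adjusted p = 0.084), and it passed the test only without untreated KO replicate 1 (-0.61, adjusted p = 0.0245). KO against WT with DSS gave -0.24 ± 0.18 (adjusted p = 0.316), and the interaction 0.45 ± 0.24 (adjusted p = 0.2).

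Prom1 (ENSMUSG00000029086, chromosome 5, 43993620 to 44102032) encodes the membrane protein prominin-1, found on crypt stem cells and progenitors and also on other epithelial cells. It had 277 and 279 CPM in DSS-treated KO libraries and 336 and 335 CPM in DSS-treated WT libraries. It had 233 and 233 CPM in untreated KO libraries and 180 and 184 CPM in untreated WT libraries. The 4 groups did not overlap, and the order of the genotypes with DSS was the reverse of that without DSS. KO differed from WT by -0.27 ± 0.04 with DSS (adjusted p = 6.35e-05) and by 0.36 ± 0.04 without DSS (adjusted p = 3.5e-05). DSS raised Prom1 by 0.25 ± 0.04 in KO (adjusted p = 0.000113) and by 0.88 ± 0.04 in WT (adjusted p = 8.63e-10), which is 1.19-fold and 1.84-fold. The difference between the responses, -0.63 ± 0.06, passed the test (adjusted p = 2.88e-06) and all 5 Prom1 calls held under every alternative run, though the rise in KO was 0.16 with length offsets. Exons of Prom1 overlap the antisense gene Gm16401, which was listed at no more than 19.2 expected counts per library against 3278 to 5691 for Prom1, and the strand setting of the counting is not given in the sources used here.

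Smoc2 (ENSMUSG00000023886, chromosome 17, 14279506 to 14404790) encodes a secreted matrix protein enriched in Lgr5-positive stem cells. It had 45.4 and 47.6 CPM in DSS-treated KO libraries and 40.4 and 43.6 CPM in DSS-treated WT libraries. It had 42.1 and 44.6 CPM in untreated KO libraries and 44.3 and 45.3 CPM in untreated WT libraries. Of the 4 comparisons of 2 groups the widest difference was that of KO against WT with DSS, 0.15 ± 0.06 (adjusted p = 0.0685), which passed the test with total count scaling (0.17, adjusted p = 0.0359) and without DSS-treated KO replicate 1 (0.18, adjusted p = 0.0453). The interaction was 0.19 ± 0.08 (adjusted p = 0.125). With DSS the Smoc2 difference between genotypes, which was not called, had the opposite sign to that of Lgr5 (-0.54). Without DSS both were negative, at -0.05 for Smoc2 (not called) and -0.31 for Lgr5.

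The feedback regulators Axin2 and Rnf43 fell with DSS in both genotypes, and Axin2 and Znrf3 were lower in KO than in WT after DSS. Axin2 (ENSMUSG00000000142, chromosome 11, 108920349 to 108950783) encodes a scaffold of the complex that breaks down beta-catenin. It had 24.5 and 22.5 CPM in DSS-treated KO libraries and 29.9 and 26.6 CPM in DSS-treated WT libraries. It had 36.9 and 37.2 CPM in untreated KO libraries and 40.5 and 43.3 CPM in untreated WT libraries. All 4 DSS libraries lay below all 4 untreated ones, and KO below WT under both treatments. DSS lowered it by -0.66 ± 0.07 in KO (adjusted p = 6.16e-06) and by -0.57 ± 0.07 in WT (adjusted p = 2.52e-05), calls kept under all alternatives, and the difference between the responses did not pass the test (-0.09, adjusted p = 0.59). KO against WT with DSS gave -0.27 ± 0.08 (adjusted p = 0.0139), lost without DSS-treated KO replicate 2 (-0.20, adjusted p = 0.0941), without DSS-treated WT replicate 1 (-0.18, adjusted p = 0.169), by the Wald test (0.0752) and with length offsets (-0.20, adjusted p = 0.154). Without DSS it was -0.18 ± 0.07 (adjusted p = 0.0974), and -0.19 (adjusted p = 0.0223) in a fit of the untreated libraries alone. Axin2 exons overlap the antisense gene Gm11670, which had at most 1 count in a library.

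Rnf43 (ENSMUSG00000034177, chromosome 11, 87662722 to 87735539) encodes a ubiquitin ligase that removes Frizzled receptors. It had 43.8 and 41.1 CPM in DSS-treated KO libraries and 43.2 and 44.7 CPM in DSS-treated WT libraries. It had 59.0 and 54.1 CPM in untreated KO libraries and 63.0 and 64.4 CPM in untreated WT libraries. The genotypes overlapped after DSS and lay apart without it. DSS lowered Rnf43 by -0.41 ± 0.06 in KO (adjusted p = 6.71e-05) and by -0.53 ± 0.06 in WT (adjusted p = 7.5e-06). The fall in KO became -0.20 with length offsets and was no longer called (adjusted p = 0.0711), while that in WT was called under every alternative. Without DSS, KO against WT was -0.17 ± 0.06 (adjusted p = 0.054), just above the threshold, and the call was made in 5 of 15 alternatives (adjusted p 0.0118 to 0.0466), among them the fits without either DSS-treated KO library (0.0209 and 0.0203).

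Znrf3 (ENSMUSG00000041961, chromosome 11, 5276324 to 5444847) encodes a ligase with the same action as Rnf43. It had 11.8 and 12.4 CPM in DSS-treated KO libraries and 16.3 and 15.3 CPM in DSS-treated WT libraries. It had 13.5 and 15.6 CPM in untreated KO libraries and 13.9 and 14.6 CPM in untreated WT libraries. The DSS-treated KO libraries were below the other 6, and the untreated genotypes overlapped. KO against WT with DSS was -0.39 ± 0.10 (adjusted p = 0.00508), missed without DSS-treated WT replicate 1 (-0.34, adjusted p = 0.0525) and by the Wald test (0.0565). DSS lowered Znrf3 in KO by -0.27 ± 0.10 (adjusted p = 0.0382) and gave 0.15 ± 0.09 in WT (adjusted p = 0.211). The interaction of -0.43 ± 0.13 passed the test (adjusted p = 0.0368). The fall in KO was lost without either DSS-treated KO library (0.121 and 0.0527) or untreated KO replicate 2 (-0.16, adjusted p = 0.328) and reached 0.05 without untreated WT replicate 1. It was also lost with total count scaling (0.0912), by the Wald test (0.233), with length offsets (0.198) and in a fit of the KO libraries alone (0.0667). The interaction was lost without any 1 of 6 libraries. These are DSS-treated KO replicate 1, both DSS-treated WT libraries, untreated KO replicate 2 and both untreated WT libraries. The interaction was also lost by the Wald test (0.243) and with length offsets (-0.32, adjusted p = 0.243).

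**Figure D2:**
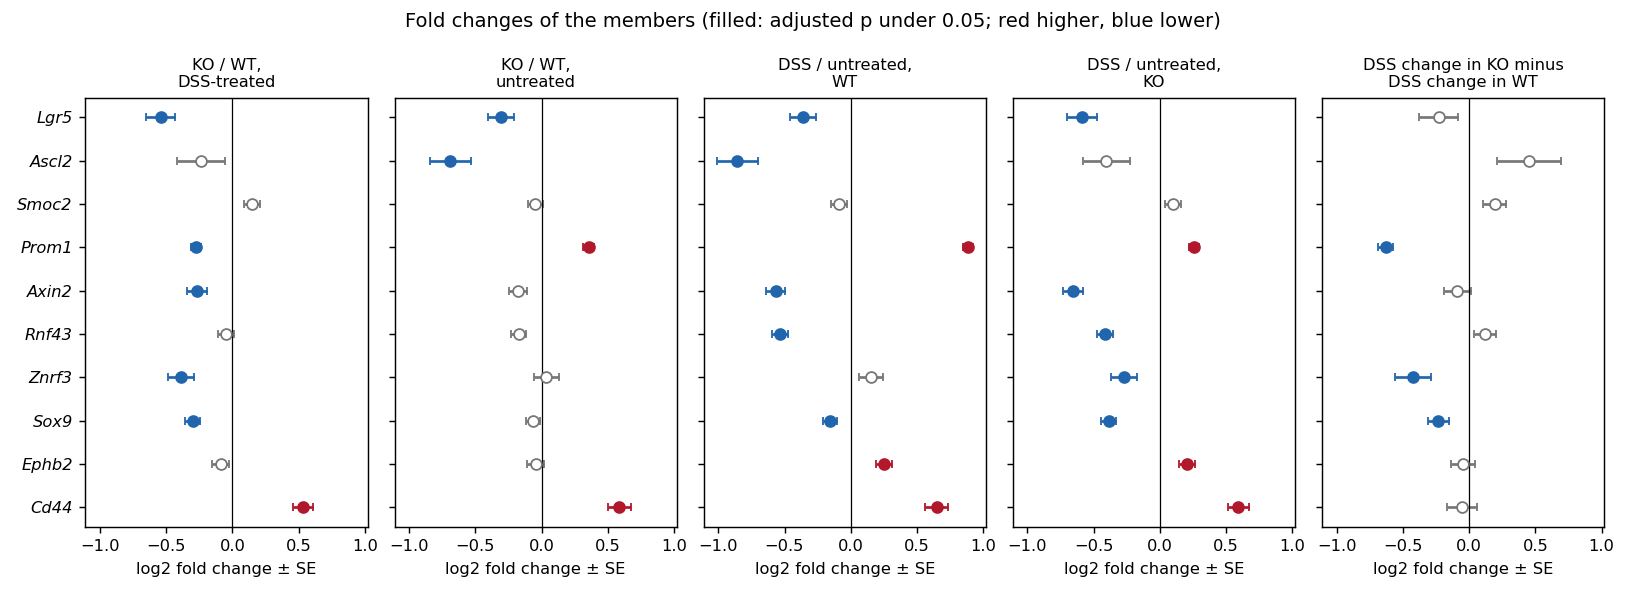
Log2 fold change ± SE from the edgeR fit for the 10 genes in the 5 comparisons, with 2 libraries in each group. Filled points passed the test (red higher, blue lower) and open points did not. Axin2 and Rnf43 are blue under DSS in both genotypes, Cd44 is red in all 4 comparisons of 2 groups, and the Prom1 genotype difference is -0.27 with DSS and 0.36 without.

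Of the genes for crypt transcription and cell position, Sox9 was lower and Cd44 higher in KO after DSS, and Ephb2 was not called between genotypes. Sox9 (ENSMUSG00000000567, chromosome 11, 112782224 to 112787760) encodes a transcription factor of crypt base progenitors. It had 52.8 and 50.7 CPM in DSS-treated KO libraries and 64.3 and 63.2 CPM in DSS-treated WT libraries. It had 69.6 and 65.9 CPM in untreated KO libraries and 68.6 and 73.5 CPM in untreated WT libraries. The DSS-treated KO libraries were lowest and the untreated genotypes overlapped. KO against WT with DSS was -0.30 ± 0.06 (adjusted p = 0.000693) and DSS lowered Sox9 in KO by -0.39 ± 0.06 (adjusted p = 6.26e-05), both under every alternative. In WT the DSS difference was -0.16 ± 0.05 (adjusted p = 0.0346), lost without either DSS-treated WT library (0.0993 and 0.157) and without untreated WT replicate 2 (0.242), with total count scaling (0.104), by the Wald test (0.173) and with length offsets (0.0925). The interaction of -0.23 ± 0.08 (adjusted p = 0.0461) was lost in 11 of 14 alternatives (adjusted p 0.0586 to 0.219), including the fits without any 1 library other than DSS-treated KO replicate 1 (0.0225) and untreated WT replicate 2 (0.0436).

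Ephb2 (ENSMUSG00000028664, chromosome 4, 136647539 to 136835988) encodes an Eph receptor, high at the crypt base, that positions cells along the crypt. It had 114 and 98.9 CPM in DSS-treated KO libraries and 117 and 110 CPM in DSS-treated WT libraries. It had 91.9 and 93.0 CPM in untreated KO libraries and 93.2 and 97.6 CPM in untreated WT libraries. All 4 DSS libraries lay above all 4 untreated ones, which is the opposite of Axin2 and Rnf43. DSS raised Ephb2 by 0.20 ± 0.06 in KO (adjusted p = 0.0186) and by 0.25 ± 0.06 in WT (adjusted p = 0.00624). The rise in KO was 0.10 without DSS-treated KO replicate 1 (adjusted p = 0.171), 0.19 and 0.21 without untreated KO replicate 1 and 2 (0.112 and 0.0854), and 0.12 with length offsets (0.135). The rise in WT was lost without DSS-treated WT replicate 1 (0.091) and without untreated WT replicate 1 (0.075). KO against WT with DSS was -0.09 ± 0.06 (adjusted p = 0.277), and without DSS-treated KO replicate 1 it was -0.20 and called (adjusted p = 0.00687).

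Cd44 (ENSMUSG00000005087, chromosome 2, 102811141 to 102901665) encodes a hyaluronan receptor that is a Wnt target in crypts and is also abundant on leukocytes. It had 40.7 and 35.6 CPM in DSS-treated KO libraries and 27.4 and 25.4 CPM in DSS-treated WT libraries. It had 25.4 and 25.3 CPM in untreated KO libraries and 17.2 and 16.5 CPM in untreated WT libraries. KO lay above WT under both treatments and DSS above no DSS in both genotypes. KO differed from WT by 0.53 ± 0.08 with DSS (adjusted p = 6.44e-05) and by 0.59 ± 0.09 without DSS (adjusted p = 0.000325). DSS raised Cd44 by 0.59 ± 0.08 in KO (adjusted p = 2.17e-05) and by 0.65 ± 0.08 in WT (adjusted p = 4.17e-05), and the interaction was -0.06 (adjusted p = 0.778). The 4 calls held under every alternative. Pan-leukocyte genes, 8 of 8 tested, summed to 113 to 115 CPM in DSS-treated KO, 50.5 to 51.9 in DSS-treated WT, 25.3 to 25.7 in untreated KO and 26.8 to 28.4 in untreated WT libraries. Of them 8 of 8 were higher in KO than in WT after DSS, beside 21.3% of all genes. With DSS 8 of 8 rose in each genotype, beside 21.7% of all genes in KO and 18.9% in WT. The part of pan-leukocyte genes in the Cd44 values of the DSS libraries was not tested. Without DSS 0 of the 8 were called between genotypes (median log2 difference -0.18). Fibroblast genes summed to at most 13.3 CPM in untreated KO and at most 8.21 CPM in untreated WT libraries, and 2 of 6 tested were higher in KO there. That number was 0 without untreated KO or WT replicate 2, and 1 without DSS-treated or untreated WT replicate 1. The part of leukocytes and fibroblasts in the untreated Cd44 values was not tested.

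Marker genes of other cell types moved in the same libraries. Of all genes 21.3% were higher and 17.7% lower in KO after DSS, and 9.19% higher and 6.22% lower without DSS. All 20 proliferation genes, such as those of DNA replication and mitosis, were higher in KO than in WT, with a median log2 difference of 1.31 after DSS and 0.54 without it. Their summed level was 1509 to 1555 CPM in DSS-treated KO, 686 to 699 in DSS-treated WT, 1132 to 1137 in untreated KO and 786 to 793 in untreated WT libraries. Proliferation sums were higher in KO and Lgr5 lower, and their relation was not tested. Deep crypt secretory genes, markers of the goblet-like cells beside stem cells, summed to 4722 to 4811 CPM in DSS-treated KO, 5814 to 5986 in DSS-treated WT, 6450 to 6489 in untreated KO and 5579 to 5671 in untreated WT libraries, and 3 of 8 were lower and none higher in KO after DSS (3 were higher without DSS-treated KO replicate 1). The sum followed Muc2, the main goblet cell mucin, at 1911 CPM in DSS-treated KO and 3092 CPM in DSS-treated WT libraries. In untreated KO 5 of 8 were lower and 2 higher (median -0.19). There too the sum followed Muc2, at 4253 CPM in untreated KO and 3422 CPM in untreated WT libraries. Dropping untreated KO replicate 1 or untreated WT replicate 2 left 1 lower there, and dropping untreated KO replicate 2 left 2. Surface colonocyte genes summed to 10202 to 10246 CPM in DSS-treated KO, 11688 to 11708 in DSS-treated WT, 15132 to 15152 in untreated KO and 14639 to 14812 in untreated WT libraries. After DSS 9 of 14 were lower and 3 higher in KO. With DSS 11 of 14 fell in each genotype, beside 19.8% of all genes in KO and 18.3% in WT. Epithelial repair genes were higher in DSS-treated KO in 10 of 13 tested and lower in none. Neutrophil genes were higher in 11 of 12, macrophage genes in 7 of 12 and fibroblast genes in 4 of 6 tested (2 of 6 by DESeq2's Wald test). The sums of the myeloid lists were 708 to 754 and 163 to 172 CPM in DSS-treated KO against 472 to 480 and 75.8 to 76.4 in DSS-treated WT libraries, with median log2 differences of 3.44 for neutrophil and 1.05 for macrophage genes. Most of the neutrophil sum came from Cd177, at 394 CPM in DSS-treated KO and 419 CPM in DSS-treated WT libraries (not called), and Ly6g, at 108 and 43.5 CPM, and both were also present in untreated libraries. Most of the macrophage sum came from Cd14, at 109 CPM in DSS-treated KO and 47.5 CPM in DSS-treated WT libraries. Cd14 was at 41.0 CPM in untreated KO and 40.1 CPM in untreated WT libraries. Fibroblast genes summed to 12.3 to 13.1 CPM in DSS-treated KO against 5.95 to 6.01 in DSS-treated WT libraries. T and NK cell genes summed to at most 9.10 CPM, and B and plasma cell genes to at most 13.7 in any library, and 2 of 8 B and plasma cell genes were lower in KO after DSS, a count of 0 without any 1 of the 4 DSS libraries and of 1 without any 1 of the untreated ones. The part of these cell types in the values of the 10 genes was not tested.

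The rest of the pathway is given from 8 lists, and some genes stand in 2 of them. Slc12a2, Cdca7 and Tnfrsf19 are counted both as other Wnt targets and as other stem cell markers. Tcf7 is counted both as a target and as a nuclear factor. Of all genes 17.7% were lower and 21.3% higher in KO after DSS. Of the Frizzled and LRP receptors, 7 of 12 tested were lower and none higher in KO after DSS (median -0.37), and 4 were lower without DSS-treated WT replicate 1. Fzd5, a main Frizzled of intestinal epithelium, averaged 131 CPM in DSS-treated KO and 160 in DSS-treated WT libraries (-0.29 ± 0.05, adjusted p = 0.000708). Fzd7, a Frizzled of stem cells, averaged 13.0 and 17.8 CPM in the same groups (-0.46 ± 0.09, adjusted p = 0.000933). Of R-spondins and their other receptors only Lgr4, a relative of Lgr5, had enough counts: 287 CPM in DSS-treated KO against 333 in DSS-treated WT libraries (-0.21 ± 0.04, adjusted p = 0.00153). Rspo2 had no count in any library. Of 13 Wnt ligand and secretion genes 4 were tested and 2 were lower, Wls, the Wnt carrier (-0.15, adjusted p = 0.0106), and Porcn, which lipidates Wnt (-0.51, adjusted p = 0.0277). The Wls call was lost without DSS-treated WT replicate 1 (0.105) and that of Porcn without any 1 of the 4 DSS libraries (0.0627 to 0.107) and by the Wald test (0.21), and with length offsets both were lost (0.0579 and 0.0782). Of 10 secreted Wnt antagonists 2 were tested, and Dkk1, Frzb and Sfrp4 had no count. Wif1 was not called, and Sfrp5 averaged 0.20 CPM in DSS-treated KO and 0.63 CPM in DSS-treated WT libraries (-1.60, adjusted p = 0.0411). That call was lost by the Wald test (0.195) and without any 1 library other than DSS-treated WT replicate 2, and the value was -1.01 without DSS-treated WT replicate 1.

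Of 13 cytoplasmic transducers 4 were lower and none higher in KO after DSS, beside 17.7% of all genes. None of the 13 was lower by DESeq2's Wald test or without DSS-treated KO replicate 2, 1 was lower without either DSS-treated WT library, and 6 were lower without DSS-treated KO replicate 1. Csnk1e, a kinase acting on Dishevelled, and Btrc, which tags beta-catenin for breakdown, gave -0.33 (adjusted p = 0.0148) and -0.30 (adjusted p = 0.015), and both calls were among those lost. With length offsets the Csnk1e value was 0.00050. Of 7 nuclear factors 1 was lower, the beta-catenin coactivator Bcl9 (-0.22, adjusted p = 0.0327), lost without DSS-treated KO replicate 2 or either DSS-treated WT library (0.0914 to 0.141), with total count scaling (0.0549), by the Wald test (0.151) and with length offsets (0.245). Without DSS-treated KO replicate 1 the nuclear factors gave 2 lower and 1 higher. Beta-catenin itself, Ctnnb1, averaged 988 CPM in DSS-treated KO and 994 in DSS-treated WT libraries and was not called.

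Other Wnt targets moved in both directions: 3 of 9 tested were higher and 1 lower in KO after DSS (median 0.02), and 3 were lower without DSS-treated KO replicate 1. Ccnd1, which drives entry into the cell cycle and is also under other growth signals, averaged 102 CPM in DSS-treated KO and 64.7 in DSS-treated WT libraries (0.65 ± 0.05, adjusted p = 1.09e-07). Mmp7, a matrix protease, averaged 4.56 and 1.93 CPM in the same groups (1.24 ± 0.21, adjusted p = 0.000335). Beside this list and the next stand the shares of all genes in that comparison, 21.3% higher and 17.7% lower. Of the other stem cell markers 2 of 11 were higher and 4 lower (median -0.06). They included Bmi1, a Polycomb protein (0.38 ± 0.08, adjusted p = 0.00122, and 0.0847 with length offsets), and Aqp4, a water channel (-0.26 ± 0.04, adjusted p = 0.00033).

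**Figure D3:**
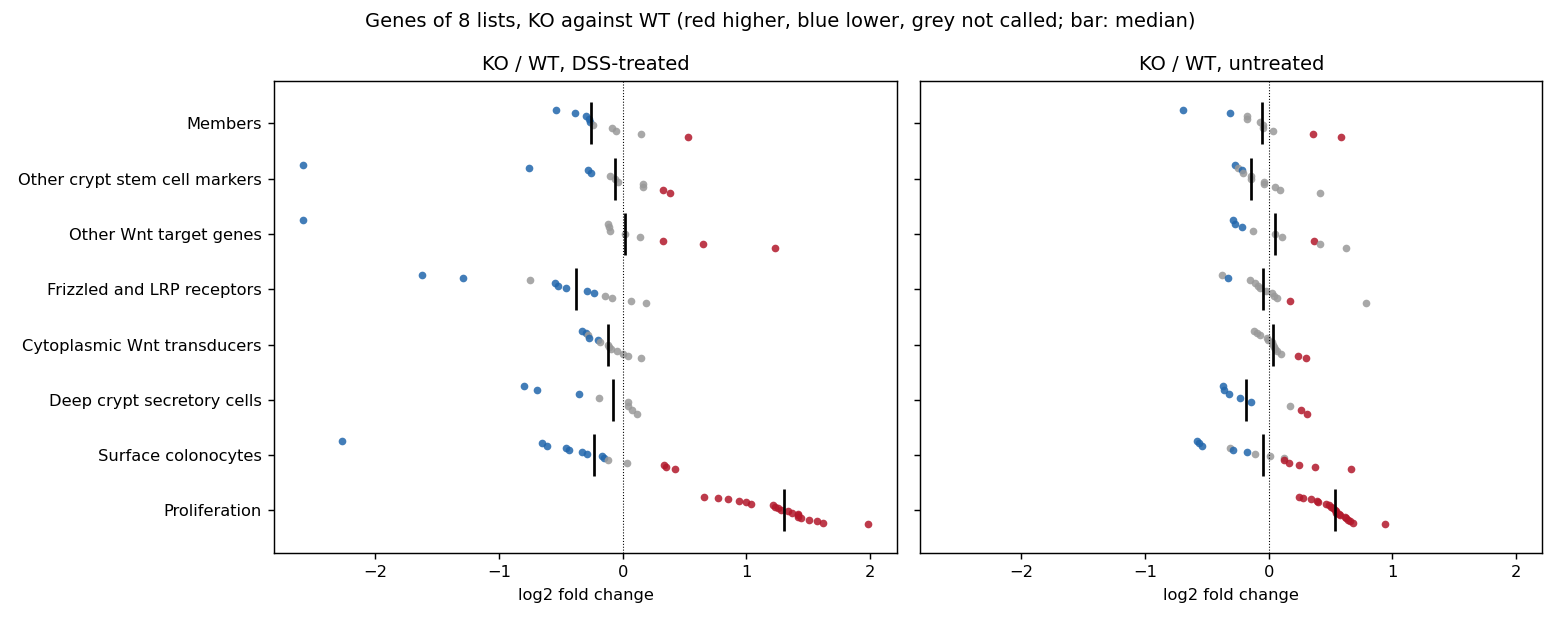
Log2 fold change of each tested gene, KO over WT, in DSS-treated (left) and untreated (right) epithelium, for the 10 genes and 7 other lists (points; red higher, blue lower, grey not called) with the median of each list (bar). The 20 proliferation genes are all red, with medians of 1.31 and 0.54, while the 10 genes spread to both sides of 0, with medians of -0.25 and -0.06.

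Without DSS, 15.4% of all genes were called between KO and WT, against 39.1% with DSS, and counts of pathway genes are read beside those shares. Tcf7l1, a TCF factor that mostly represses targets, averaged 48.3 CPM in untreated KO and 66.4 in untreated WT libraries (-0.46 ± 0.06, adjusted p = 9.01e-05). Ccnd1 averaged 94.6 and 73.6 CPM in the same groups (0.36 ± 0.05, adjusted p = 0.000124). Slc12a2, an ion cotransporter of lower crypt cells, averaged 290 and 351 CPM (-0.27 ± 0.04, adjusted p = 0.000793). In all 1 of 9 other Wnt targets was higher and 3 lower, 1 was lower without untreated KO replicate 1, and 2 were higher without either DSS-treated KO library. Of the other stem cell markers 2 of 11 were lower, and 1 without untreated KO replicate 1. The receptors gave 1 higher and 1 lower of 12, the transducers 2 higher of 13, the nuclear factors 1 higher and 1 lower of 7, while Porcn was at -0.45 (adjusted p = 0.0726) and Lgr4 at -0.12 (adjusted p = 0.0973). The calls of the receptor Fzd1 (-0.33), of Fzd5 (0.17), Apc (0.24), Dvl3 (0.30), Ctnnb1 (0.12) and Lrig1 (-0.21) were each lost on leaving out at least 1 untreated library. These are untreated KO replicate 2 for Fzd1 (0.0582), untreated KO replicate 1 for Lrig1 (0.0895), untreated KO replicates 1 and 2 and untreated WT replicate 1 for Dvl3 (0.0658 to 0.347), and each of the 4 for Fzd5 (0.0708 to 0.359), Apc (0.0955 to 0.263) and Ctnnb1 (0.109 to 0.233). Those of Fzd5, Apc, Dvl3 and Ctnnb1 were also lost without either DSS-treated WT library (0.0619 to 0.0822). By the Wald test and with length offsets Fzd5 (0.124 and 0.151), Apc (0.0525 and 0.121) and Dvl3 (0.146 and 0.12) were not called, nor was Fzd5 with DESeq2 size factors (0.057) or Ctnnb1 with no filter (0.0771).

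With DSS, pathway genes moved both ways in each genotype. Of all genes 21.7% rose and 19.8% fell in KO, and 18.9% rose and 18.3% fell in WT. Myc, a growth regulator and classical Wnt target, averaged 21.1 CPM in DSS-treated WT and 40.3 in untreated WT libraries (-0.93 ± 0.07, adjusted p = 1.25e-07). In KO the targets with the smallest p-values were Mmp7, at 4.56 CPM in DSS-treated and 0.25 in untreated KO libraries (4.15 ± 0.32, adjusted p = 1.11e-07), and Slc12a2, at 415 and 290 CPM (0.52 ± 0.04, adjusted p = 3.74e-07). Over the 9 other targets 2 rose and 3 fell in KO, and 3 rose and 5 fell in WT. Over 12 receptors 2 rose and 5 fell in KO, and 4 rose and 2 fell in WT. Fzd7 fell by -0.85 ± 0.09 in KO (adjusted p = 1.81e-06) and by -0.54 ± 0.08 in WT (adjusted p = 1e-04). Lgr4 rose by 0.23 ± 0.04 in KO (adjusted p = 0.000728) and by 0.33 ± 0.04 in WT (adjusted p = 5.48e-05), so this R-spondin receptor rose where Lgr5 fell. Over 13 transducers 3 rose and 6 fell in KO, and 4 rose and 3 fell in WT, with Dvl1, a Dishevelled protein that relays the Frizzled signal, at -0.50 ± 0.05 and -0.33 ± 0.05 (adjusted p = 1.8e-06 and 0.000145). Tnks2, a transducer of the same list, rose by 0.30 in KO and by 0.33 in WT (adjusted p = 8.82e-05 and 6.48e-05). Its rise in KO was not called with length offsets (0.0821). Of 7 nuclear factors 2 fell and 0 rose in KO, and 2 fell and 1 rose in WT, and Tcf7l1 was among those that fell in both (-0.24, adjusted p = 0.00644, and -0.54, adjusted p = 6.17e-06), the fall in KO not being called with length offsets (0.0876). The nuclear factor that rose in WT was Ctnnb1 (0.19, adjusted p = 0.00106). Of 11 other stem cell markers 5 rose and 3 fell in KO, and 3 rose and 2 fell in WT. Several of these counts moved by over 1.5 times on leaving out 1 library. At most 1 receptor rose in KO without any 1 of the 4 KO libraries. In WT 2 receptors rose without untreated WT replicate 1, and 1 fell without either DSS-treated WT library, either untreated KO library or untreated WT replicate 2. Of the transducers 3 fell in KO without DSS-treated or untreated KO replicate 2, and 1 fell in WT without DSS-treated WT replicate 1. Of the nuclear factors 1 fell in KO without untreated KO replicate 1, and 1 fell in WT without DSS-treated WT replicate 2 or either untreated WT library. Of the other targets 3 fell in WT without DSS-treated or untreated WT replicate 2. Wif1 and Sfrp5 averaged 0.20 to 0.72 CPM over the 4 groups, and Wls was higher (0.12 in KO, adjusted p = 0.0412, and 0.19 in WT, adjusted p = 0.00374), a call lost in KO without any 1 library other than DSS-treated KO replicate 2 and in WT without DSS-treated WT replicate 1 (0.0584) or untreated WT replicate 2 (0.0509). With length offsets it was lost in both (0.0855 in KO and 0.0527 in WT), and in KO also by the Wald test (0.129), with no filter (0.0972) and in a fit of the KO libraries alone (0.0808).

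Between genes, levels were compared as deposited TPM, which accounts for transcript length. Prom1 was the highest of the 10 in every library, with means of 155 TPM in DSS-treated KO, 179 in DSS-treated WT, 127 in untreated KO and 98.5 in untreated WT libraries. Ephb2 came next in all 4 groups, from 23.3 to 30.1 TPM, although in untreated WT libraries it overlapped Rnf43 (23.1 TPM), which overlapped Sox9 (22.5), which overlapped Smoc2 (21.2). Axin2 stood in the middle of the order, with means of 11.4 to 17.6 TPM. Cd44 changed its place most: it had 13.0 TPM in DSS-treated KO libraries, above Axin2, and 4.89 TPM in untreated WT libraries, where it overlapped Lgr5 (4.95). Lgr5 averaged 3.02 to 4.95 TPM and Znrf3 3.17 to 3.85, so this receptor and this ligase stayed at the low end of the order.

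RSEM also gives a transcript length per gene and library, weighted by how much of each isoform it estimated. For Rnf43 it was 3286 and 3247 bases in DSS-treated KO libraries, 3569 and 3290 in DSS-treated WT libraries. Without DSS it was 3731 and 3763 bases in KO libraries and 3598 and 3681 in WT libraries. For Prom1 it was 2753 and 2658, 2802 and 2665, 2543 and 2548, and 2406 and 2581 bases in the same order of groups (KO then WT with DSS, KO then WT without). In both genes the estimates of the 4 DSS libraries did not overlap those of the 4 untreated ones, being lower for Rnf43 and higher for Prom1. For Rnf43 the nearest were 3569 bases in a DSS-treated WT and 3598 in an untreated WT library. The 2 DSS-treated WT libraries themselves were at 3569 and 3290 bases. How many of all genes separate in this way was not counted. For Cd44, a gene with many splice forms, DSS-treated WT libraries had the shortest estimates (4075 and 4076 bases) and the other 6 had 4207 to 4634. Sox9 (4135 bases) and Smoc2 (2832) did not vary. These 3 genes were picked after their values were seen and no test was made.

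**Figure D4:**
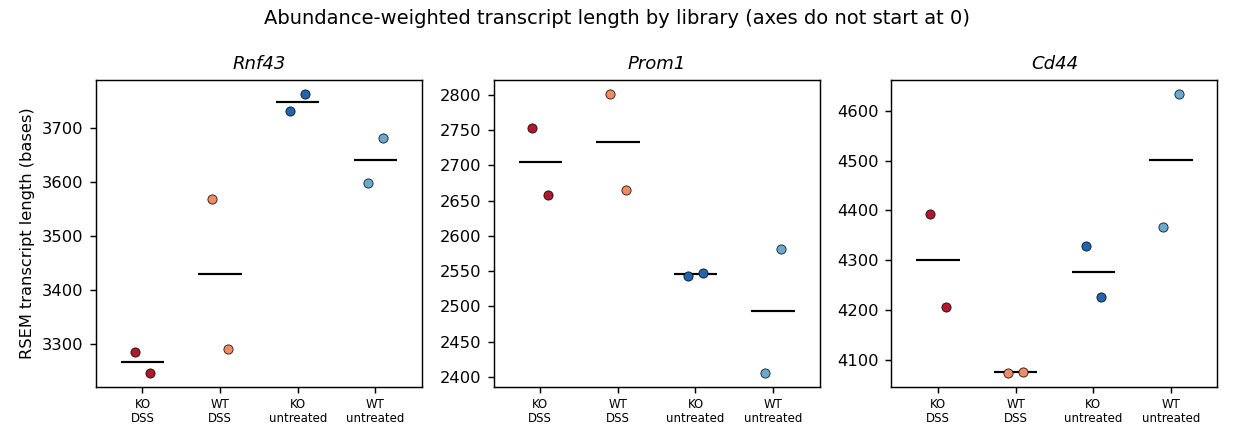
Abundance-weighted transcript length from RSEM, in bases, for Rnf43, Prom1 and Cd44 in each library (points) with the mean of the group (line). The vertical axes do not start at 0. The DSS libraries lie between 3247 and 3569 bases for Rnf43, below the untreated ones at 3598 to 3763.

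Likeness of pattern was measured as the root mean square difference of log2 CPM over the 8 libraries, each gene centred on its own mean, among genes with at least 5 CPM on average. Gene models (Gm or Rik symbols), pseudogene symbols, ribosomal protein genes, mitochondrially encoded genes and antigen receptor segments were left out. That left 9994 candidates for each gene. Among the 10 genes themselves the closest pairs were Axin2 and Rnf43 (0.12), Sox9 and Znrf3 (0.14) and Sox9 and Rnf43 (0.14). Of these candidates the closest to Lgr5 were Retreg1 (0.07), Eid1 and Hoxa11os (0.08 each), and to Axin2 Synpo (0.05), Tcf23 and Akap2 (0.06 each). Those closest to Rnf43 were Max (0.04), Kifc3 (0.05) and Alcam (0.06), and to Sox9 Trak1 (0.03), Ndrg3 (0.03) and Spred2 (0.04). Prom1 was closest to Elovl6 and Dsc2 (0.08 each) and Lpin2 (0.09), and Cd44 to Oasl2 (0.07), Acsl4 and Fdps (0.10 each). Ascl2 had no gene nearer than Gal3st2, Cyp2d10 and Gal3st2b (0.13 each), and Gal3st2 and Gal3st2b are near-identical copies that may share reads. Znrf3 was closest to Etfbkmt (0.02), Tatdn3 and Zfp182 (0.05 each), Ephb2 to Yipf6, Ern1 and Vcpip1 (0.03 each) and Smoc2 to Nap1l4, Sf3b2 and Chmp4b (0.03 each). The measure depends on how much a gene varies, and a gene with a flat profile has many near neighbours by it.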

How the data were processed

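RNA of 8 libraries was sequenced, 2 for each of 4 groups taken from the sample titles. Per the submitters' processing notes the tools were RSEM 1.3.0, STAR 2.5.3a and DESeq2 1.18.1, with mm10 as the build and no options stated; annotation release and strand setting are not given in the sources used here. The deposited tables hold, per the file headers, an expected count per gene (RSEM divides ambiguous reads between genes), TPM, and transcript and effective length in bases. TPM values were made by the authors and served only to order genes by level.

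The expected counts, taken to the nearest whole number, went into edgeR 4.0.16 under R 4.3.3 (TMM factors, default filterByExpr, 14991 genes kept). A single quasi-likelihood fit over the 8 libraries had 1 coefficient for each group. From it came 5 comparisons: the genotypes with and without DSS, the DSS effect in KO and in WT, and the interaction (the KO effect of DSS less the WT effect). Tests were two-sided, p-values were adjusted by the Benjamini-Hochberg method over all genes tested, and the threshold was 0.05. The SE was derived from the F statistic as the size of the log2 fold change over its root. The procedure was tested on simulated data. Alternatives were DESeq2 1.42.0 (Wald test), its size factors, total count scaling, no filter, a replicate block, effective-length offsets, each library left out, and a fit of the comparison's own 4 libraries.

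The 10 genes, 8 pathway lists and 12 marker lists were chosen with earlier results of these data known. All 10 genes and Rora were tested in each comparison. Other pathway genes were named from the up to 2 per list with the smallest p, and not all of those are named. Others named (Ctnnb1 in KO against WT after DSS, and genes at 0) were added after their values were seen. Cdca7 and Tcf7 are named only as genes that stand in 2 lists. Positions are from GENCODE M21 (mm10).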

Additional observations from a re-analysis of the deposited data

Results flagged for a closer look

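The response to DSS differed between genotypes, by the edgeR interaction test, for 3 of the 10 genes, beside 21.4% of all genes. Values are log2 effects of DSS in KO less those in WT. The difference was -0.63 for Prom1 (adjusted p = 2.88e-06), -0.43 for Znrf3 (adjusted p = 0.0368) and -0.23 for Sox9 (adjusted p = 0.0461). The Sox9 call was lost in 11 of 14 alternatives, while that of Prom1 was kept in all 14. That of Znrf3 was lost without any 1 of 6 libraries, by the Wald test and with length offsets.

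Of the other pathway genes named, the same test passed for Fzd5 at -0.46 (adjusted p = 0.000827), Aqp4 at -0.35 (adjusted p = 0.0013), Dvl3 at -0.57 (adjusted p = 0.00695) and Apc at -0.43 (adjusted p = 0.00755). The call of Dvl3 was lost without untreated KO replicate 1 (0.0502) and that of Apc without untreated WT replicate 1 (0.0509). It passed with a positive value for Ccnd1 at 0.29 (adjusted p = 0.00794) and Tcf7l1 at 0.30 (adjusted p = 0.0203). The Tcf7l1 call was lost without DSS-treated WT replicate 2 or any 1 untreated library, by the Wald test (0.111) and with length offsets (0.196). Fzd3 at -2.08 (adjusted p = 0.00954) and Tnfrsf19 at -3.01 (adjusted p = 0.00755) had only 13 and 6 counts in their lowest group, and the Tnfrsf19 call was lost without untreated KO replicate 1 (0.0575). No technical or biological account of these differences was tested.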

How the results depend on the processing

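Of 432 alternative fits of the 29 called results of the 10 genes, 370 kept direction and call, 62 kept the direction without the call and 0 turned round. Of 308 fits of the 21 results not called, 10 made a call and 9 turned round. Those 9 were Rnf43 in KO against WT with DSS (0.015 with length offsets), Ephb2 there (-0.20 to 0.012 on leaving out a library), Znrf3 without DSS (-0.024 with length offsets, and -0.075 to 0.13 on leaving out a library, with -0.00058 when untreated WT replicate 1 was dropped), and the interactions of Ephb2 (-0.15 to 0.057) and Cd44 (-0.15 to 0.041), each turned round by dropping DSS-treated KO replicate 2 (0.057 and 0.041) or DSS-treated WT replicate 1 (0.0061 and 0.00018). Csnk1e after DSS was 0.00050 with length offsets.

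The number of the 10 genes lower in KO with DSS was 3 by DESeq2's Wald test, and 2 were higher with total count scaling. Without DSS the number lower was 1 with total count scaling, 0 by the Wald test, 0 with length offsets and 4 in a fit of the untreated libraries alone. With DSS in WT 3 were lower by the Wald test and 3 with length offsets, with DSS in KO 3 with length offsets, and in the interaction 1 by each. Leaving out a library gave 3 to 6 lower and 1 to 2 higher in KO with DSS, 0 to 3 lower without DSS, 3 to 5 lower with DSS in WT, 4 to 6 in KO and 1 to 2 in the interaction.

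Over all genes the Wald test called 1648 lower in KO with DSS, 748 higher and 498 lower without DSS, 1808 higher and 1601 lower with DSS in WT, and 856 and 828 in the interaction. Length offsets called 786 higher and 504 lower without DSS, and 882 and 912 in the interaction. The untreated libraries alone gave 1584 lower. Leaving out a library gave 1767 to 2791 lower in KO with DSS, 625 to 1833 higher and 328 to 1341 lower without DSS, 1867 to 3203 higher and 1791 to 3223 lower with DSS in WT, and 945 to 2276 and 943 to 2168 in the interaction.

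The replicate block used the numbers in the titles. Within-number deviations (replicate 1 minus 2, 10572 genes) correlated at 0.36 between DSS-treated KO and DSS-treated WT. With untreated WT these groups gave -0.38 and -0.31, and pairs with untreated KO gave -0.02 to 0.08. The signs differed, so the numbers were not taken to pair the libraries. A difference shared by libraries of unlike number would not be taken up by the block and was not tested. With the block, the number of genes lower in KO without DSS was 1 of 10, since Lgr5 was not called (-0.31, adjusted p = 0.0577), and the Sox9 interaction was not called (-0.23, adjusted p = 0.0586). It changed no other call of the 10 genes, and of the other genes named that of Fzd5 without DSS (0.17, adjusted p = 0.0647). Depth limited Ascl2 most, at 63 to 174 counts.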
